A study of Mus musculus with 8 samples.

Results

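NF-kB is a family of transcription factors that switches on cytokines, chemokines and their own inhibitors when a cell senses damage, microbes or inflammatory signals. In resting cells its dimers are held in the cytoplasm by the IkB proteins, and the kinase complex IKK releases them by marking IkB for destruction. In the colon the pathway is known for linking epithelial injury and tumour growth to the recruitment of immune cells.
The genes described here are 37 members of this pathway, taken by name from the 32728 genes of a count table: 5 subunits, 5 genes of the IkB family, 4 regulators that NF-kB induces (the group drawn as Feedback), 11 cytokines, 8 chemokines and 4 effectors. Of these, 35 passed the filter on low counts and were tested; Il1b and Il6 did not.

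The libraries came from colon cancer organoids of C57BL/6 mice, which are epithelial cultures grown in gel. Apc, Trp53 and Smad4, together called APS, had been knocked out in them with CRISPR. Every group carried these edits, so no comparison here is with unedited cells. A pair of lines was sequenced, CTO19, labelled male, and apsMC706, labelled female, each in a medium without EGF (noEGF) and in a control medium (EM). EM held B27, noggin, Galunisertib and EGF and was used for 3 days, while noEGF organoids had grown for 7 days since EGF was taken out. Noggin blocks BMP ligands and Galunisertib blocks the TGF-beta receptor.
The 4 groups were CTO19 noEGF, CTO19 EM, apsMC706 noEGF and apsMC706 EM, with 2 libraries each. Medium cannot be told apart from days in culture, nor line from labelled sex. The labels call the lines biological replicates and do not say whether the 2 replicates of a line were separate cultures, so p-values measure the spread between these libraries, which may be technical.

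Library totals ran from 35650262 to 38953838 counts, and a count of 0 allows up to 3 counts, or 0.0745 to 0.0868 CPM, the counts scaled to library size. RNA of Apc, Trp53 and Smad4 was counted in every library, which does not check the edits, since an edited gene can still be transcribed. Epithelial markers such as Epcam and Cdh1 were high in every library (7 markers, summed to 3879 to 3955 CPM in CTO19 noEGF, 3065 to 3211 CPM in CTO19 EM, 3359 to 3391 CPM in apsMC706 noEGF and 3174 to 3230 CPM in apsMC706 EM).
The 5 colon and intestine markers summed to 68.6 to 89.3 CPM in CTO19 noEGF, 37.2 to 43.2 CPM in CTO19 EM, 672 to 673 CPM in apsMC706 noEGF and 962 to 978 CPM in apsMC706 EM, led by Cdh17, Vil1 and Lgals4 in apsMC706. The intestinal factor Cdx2 averaged 1.10 CPM in CTO19 noEGF and 2.05 CPM in CTO19 EM, against 10.1 CPM in apsMC706 noEGF and 9.32 CPM in apsMC706 EM, and its relative Cdx1 at most 0.0937 CPM in any group. The 7 squamous epithelium markers, led by Krt5 and Krt14, ran the other way in their sum, with 6386 to 7083 CPM in CTO19 noEGF and 8981 to 9176 CPM in CTO19 EM, against 8.02 to 13.9 CPM in apsMC706 noEGF and 9.42 to 9.79 CPM in apsMC706 EM. Krt13 was low throughout, at 4.03 CPM or less on average in every group. The CTO19 libraries thus went against their colon label in these markers, and every line difference below moves with them. Their part in it was not tested.

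Immune cells are the other common source of these cytokines. The 10 immune markers summed to 46.2 to 50.7 CPM in CTO19 noEGF, 20.5 to 21.5 CPM in CTO19 EM, 20.6 to 21.4 CPM in apsMC706 noEGF and 8.73 to 9.53 CPM in apsMC706 EM. Almost all of that was Cd14, Cd68 and, in CTO19 noEGF, Csf1r. The other 7 markers stayed under 1 CPM in every library, and the pan-leukocyte gene Ptprc averaged at most 0.114 CPM in any group. The 7 fibroblast markers summed to at most 11.4 CPM and the 4 endothelial markers to at most 27.8 CPM in a library. The immune, fibroblast and endothelial sums were each higher in noEGF than in EM in both lines, and their part in the results was not tested. In bulk RNA, fewer cells of a type and less RNA per cell cannot be told apart.

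The binding motif of NF-kB is known, and the upstream sequences of the members bear it unevenly. RefSeq windows on GRCm38.p6, from 250 bases before to 50 bases after a gene's start, could be matched to 28 of the 37 members by symbol. The consensus kB motif, searched on both strands, occurred in the windows of 12 of these 28 members (42.9%), against 1388 of 27018 genes with a window (5.14%). The 12 were Nfkb2, Rel, Nfkbia, Nfkbie, Bcl3, Tnfaip3, Il6, Csf1, Cxcl1, Cxcl2, Cxcl10 and Ccl20. The members were picked by name as genes of this pathway, so their higher share describes the list and is not a test. A match is a description of the letters and not a measured site, and a window without one says nothing about binding elsewhere.
The 250 bases before the start are printed for 4 of them, 5′ to 3′ on the strand of the gene, with kB matches in capitals. Nfkbia, Cxcl1 and Cxcl2 are shown because they differed between the media in opposite directions in the lines, and Cxcl10 because it rose in both. They lie at chr12:55492648-55492897 (minus strand, Nfkbia), chr5:90890995-90891244 (plus strand, Cxcl1), chr5:90903649-90903898 (plus strand, Cxcl2) and chr5:92348890-92349139 (minus strand, Cxcl10).
Nfkbia: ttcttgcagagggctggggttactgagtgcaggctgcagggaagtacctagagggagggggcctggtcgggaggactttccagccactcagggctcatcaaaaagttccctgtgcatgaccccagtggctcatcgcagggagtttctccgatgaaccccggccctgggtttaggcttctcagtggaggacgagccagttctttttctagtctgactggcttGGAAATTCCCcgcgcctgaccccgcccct
Cxcl1: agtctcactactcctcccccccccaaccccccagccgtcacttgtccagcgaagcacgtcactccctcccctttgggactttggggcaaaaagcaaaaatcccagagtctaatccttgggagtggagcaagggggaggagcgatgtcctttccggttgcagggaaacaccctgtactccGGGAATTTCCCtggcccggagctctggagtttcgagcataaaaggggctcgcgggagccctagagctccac
Cxcl2: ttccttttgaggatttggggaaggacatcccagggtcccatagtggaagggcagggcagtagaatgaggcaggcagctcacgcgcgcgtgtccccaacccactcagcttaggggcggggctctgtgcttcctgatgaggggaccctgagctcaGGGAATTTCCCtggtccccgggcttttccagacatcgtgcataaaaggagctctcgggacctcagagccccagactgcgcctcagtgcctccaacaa
Cxcl10: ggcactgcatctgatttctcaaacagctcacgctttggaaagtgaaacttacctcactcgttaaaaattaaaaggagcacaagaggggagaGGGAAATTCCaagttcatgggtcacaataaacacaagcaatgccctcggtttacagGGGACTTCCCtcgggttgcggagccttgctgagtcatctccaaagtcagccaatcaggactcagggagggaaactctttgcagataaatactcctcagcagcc
Cxcl1 and Cxcl2, which lie 12.6 kb apart, shared the same capital run of letters, GGGAATTTCCC, beginning 71 bases before the start of Cxcl1 and 97 bases before that of Cxcl2. It holds overlapping matches on both strands. The match of Nfkbia began 29 bases before its start, and Cxcl10 held 2 matches, beginning 159 and 103 bases before its start.
Matches occurred among members of both kinds of response described next. They were found in 5 of 9 with a window among those that moved in opposite directions in the lines. Among those higher in noEGF in both lines it was 4 of 7. It was 1 of 5 among those higher in apsMC706 and not called in CTO19, and 1 of 3 among those called in neither line. Of the 2 members not tested, 1 had a match, and the windows of Il18 and Nfkbib had none.

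Set against EM, noEGF gave a mixed picture in CTO19 and higher RNA of most members in apsMC706. In CTO19, 10 of the 35 tested members rose, led by Il18 and Il33, and 16 fell, led by Il24 and Csf3. In apsMC706, 26 rose, among them Tnfaip2, Ccl5 and Lcn2, and 2, Nfkb1 and Nfkbib, fell. In all, 12 members fell in CTO19 and rose in apsMC706: Nfkb2, Nfkbia, Nfkbiz, Tnfaip2, Tnfaip3, Il1a, Lif, Cxcl1, Cxcl2, Cxcl5, Cxcl16 and Ptgs2. Another 9 rose in both lines: Rela, Relb, Nfkbie, Birc3, Il33, Csf1, Cxcl10, Ccl5 and Ccl20.

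These calls stand against a high background. In CTO19, 74.3% of the tested members passed an adjusted p under 0.05 between noEGF and EM (28.6% higher, 45.7% lower), near the 68.0% of all 16719 genes tested (34.7% higher, 33.3% lower). In apsMC706, 80.0% of the tested members passed (74.3% higher), against 67.2% of all genes (34.1% higher, 33.1% lower). The median log2 fold change of the tested members was -0.15 in CTO19 and 1.51 in apsMC706 (1.53 without Csf2, which had no count in that line). Over all genes tested the medians were 0.02 in CTO19 and 0.00 in apsMC706. With a fold of at least 2 asked for as well, 9 tested members passed in CTO19, where 17.6% of all genes did, and 19 in apsMC706, where 19.6% of all genes did.
Falling in CTO19 while rising in apsMC706 was found for 34.3% of the tested members and 7.40% of all genes. The opposite pattern, rising in CTO19 while falling in apsMC706, was found for none of the members and 5.88% of all genes. Of all genes, 17.1% were called higher in both lines and 18.5% lower in both. Among the members lower calls in both lines were found for Nfkbib alone.

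**Figure D1:**
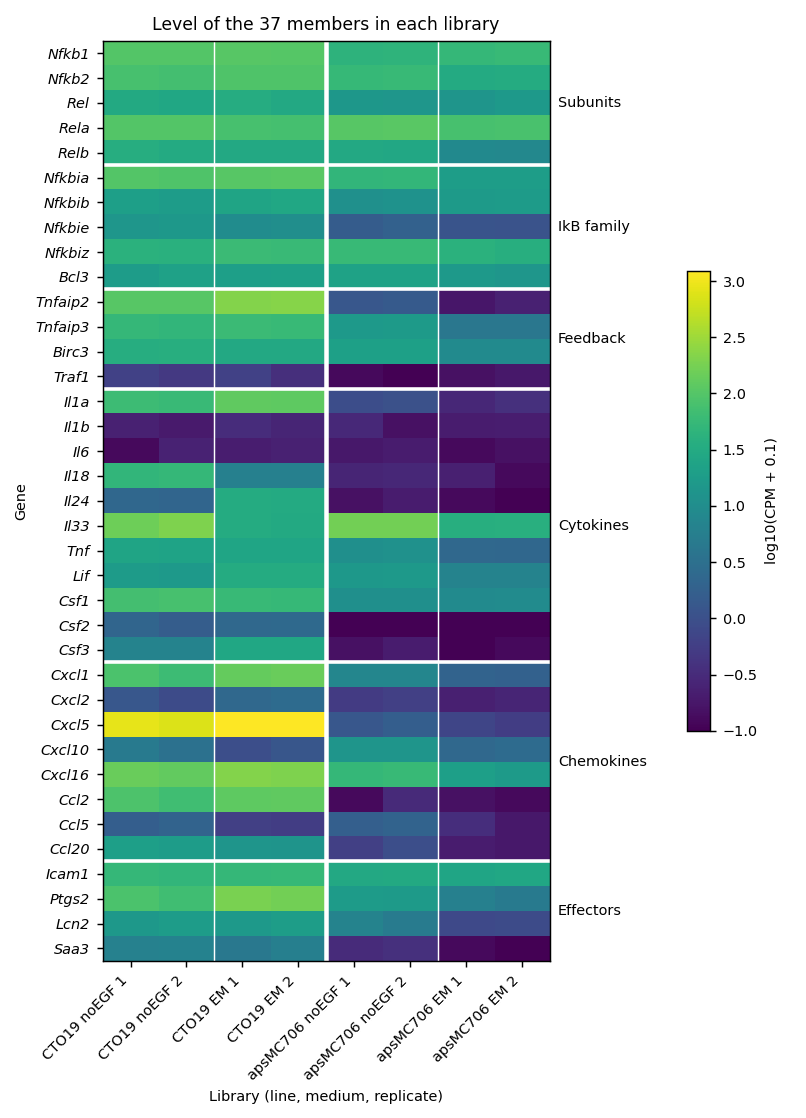
Level of the 37 members in the 8 libraries, as log10 of CPM plus 0.1 (colour), with genes in rows by role and libraries in columns by line, medium and replicate. Replicates look alike within each group, Cxcl5 in CTO19 is the brightest row (762 to 1234 CPM), and many cytokine and chemokine rows are dark in apsMC706.

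How far the response to noEGF in CTO19 departed from that in apsMC706 was tested directly, as the CTO19 log2 fold change minus that of apsMC706. It was called for 26 of the 35 tested members (74.3%), 23 below 0 and 3 above, against 56.0% of all genes (25.6% below 0, 30.4% above). The median log2 difference of the members was -1.59 (-1.60 without Csf2), against 0.06 over all genes. The 3 above 0 were Il18, Csf1 and Nfkb1. Summed by role, the chemokines had 1049 to 1212 CPM in CTO19 noEGF and 1680 to 1717 CPM in CTO19 EM, against 77.2 to 82.1 CPM in apsMC706 noEGF and 21.9 to 25.6 CPM in apsMC706 EM. The cytokines summed to 394 to 438 CPM in CTO19 noEGF and 329 to 342 CPM in CTO19 EM, against 201 to 205 CPM in apsMC706 noEGF and 55.2 to 56.9 CPM in apsMC706 EM. The sums did not overlap between media in either line, and the chemokine sum of CTO19 was carried by Cxcl5. The cytokine sums held more of Il33 than of any other cytokine in noEGF, 175 CPM in CTO19 and 164 CPM in apsMC706, while Il1a, Il24, Csf3 and Lif fell in CTO19.

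**Figure D2:**
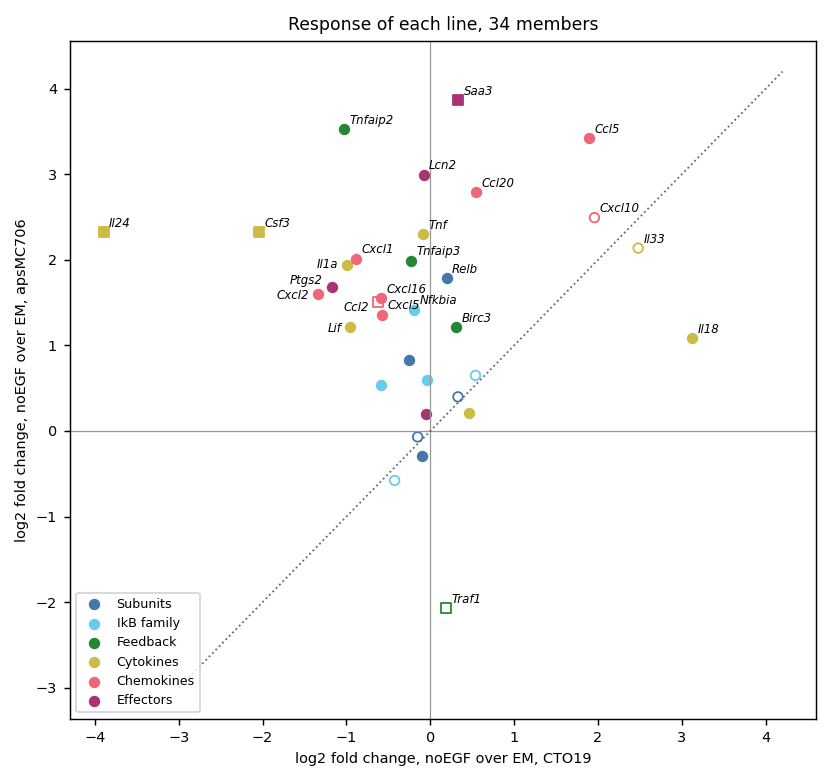
Response of each line to noEGF, with the log2 fold change over EM in CTO19 across and in apsMC706 upwards, for the 34 tested members other than Csf2. Filled points passed the test for unequal responses, squares had at most 3 counts over the libraries of an apsMC706 group, and the dotted line marks equal responses; names are given from a log2 fold change of 1 in size. Most filled points lie above the dotted line, and Il18 is the filled point far below it.

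When the lines were analysed together, with a term for line, noEGF gave 9 higher and 4 lower calls among the 35 tested members (37.1%), against 48.8% of all genes (25.5% higher, 23.3% lower). Il33, Cxcl10, Ccl5, Il18, Relb, Birc3, Nfkbie, Rela and Csf1 were higher, and Il24, Csf3, Nfkbib and Nfkb1 lower. The pooled estimates of Il24 and Csf3 come from CTO19, since apsMC706 held at most 4 counts of either in a library; both calls were lost in the DESeq2 Wald test (adjusted p = 0.408 for Il24 and 0.355 for Csf3). Tnf and Ccl20 did not pass (adjusted p = 0.111 for Tnf and 0.0507 for Ccl20), and did in the DESeq2 Wald test (adjusted p = 0.0264 and 0.00633), where Lcn2 and Saa3 passed too (adjusted p = 0.0212 and 0.0422). After summing the replicates of each group, which leaves 1 residual degree of freedom, edgeR called 0 members and 0 genes; 4 members and 2809 genes had an unadjusted p under 0.05.
Without any 1 of the 4 apsMC706 libraries the pooled call of Relb was lost (adjusted p = 0.0709 to 0.109), without any 1 of the 4 CTO19 libraries that of Csf3 (adjusted p = 0.0541 to 0.0828), and without any 1 library but CTO19 EM replicate 2 that of Nfkb1 (adjusted p = 0.0511 to 0.0869). Bcl3 passed without CTO19 noEGF replicate 1 (adjusted p = 0.0365) and Ccl2 without apsMC706 noEGF replicate 2 (adjusted p = 0.0151). In limma-voom, Il1a, Ccl2 and Ccl20 passed (adjusted p = 0.0296, 0.0221 and 0.0379). Nfkb1 missed the threshold with no or a stricter filter (adjusted p = 0.0573 and 0.0784), and with the replicate block Nfkb1 and Relb both did (adjusted p = 0.0553 and 0.0603).

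Among the subunits, the pair that forms the alternative branch of the pathway, Nfkb2 and Relb, showed the largest differences between the responses of the lines. Nfkb2 encodes the precursor of the subunit that pairs with RelB. Nfkb2 had 80.0 and 74.4 CPM in CTO19 noEGF, against 92.9 and 90.8 CPM in CTO19 EM. In apsMC706, Nfkb2 had 55.6 and 57.9 CPM in noEGF, against 31.1 and 32.7 CPM in EM. The libraries of the media lay apart in both lines, with noEGF below EM in CTO19 and above it in apsMC706. Nfkb2 fell in CTO19 (log2 change -0.25, SE 0.048, adjusted p = 3.00e-04) and rose in apsMC706 (log2 change 0.83, SE 0.052, adjusted p = 2.20e-09), and the responses differed (log2 difference -1.08, SE 0.071, adjusted p = 1.07e-08).
Relb encodes the RelB subunit itself. Relb had 35.6 and 31.5 CPM in CTO19 noEGF, against 29.5 and 29.1 CPM in CTO19 EM. In apsMC706, Relb had 29.1 and 28.3 CPM in noEGF, against 8.70 and 7.95 CPM in EM. Relb rose 1.14-fold in CTO19 (log2 change 0.19, SE 0.065, adjusted p = 0.0157) and 3.44-fold in apsMC706 (log2 change 1.78, SE 0.077, adjusted p = 4.07e-11), and the rise was smaller in CTO19 (log2 difference -1.59, SE 0.10, adjusted p = 8.68e-09). In noEGF the lines were close to each other. Its CTO19 call was lost without CTO19 EM replicate 2 or CTO19 noEGF replicate 1 (adjusted p = 0.0518 to 0.155) and in the DESeq2 Wald test (adjusted p = 0.0567).

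The subunits of the main branch moved little. Rela encodes the transactivating subunit most dimers carry. Rela had 97.9 and 99.7 CPM in CTO19 noEGF, against 80.2 and 77.0 CPM in CTO19 EM. In apsMC706, Rela had 105 and 111 CPM in noEGF, against 79.5 and 84.0 CPM in EM. In both lines the noEGF libraries lay above the EM libraries, and Rela rose 1.26-fold in CTO19 (log2 change 0.33, SE 0.046, adjusted p = 1.48e-05) and 1.32-fold in apsMC706 (log2 change 0.40, SE 0.045, adjusted p = 1.68e-06). The difference of these responses did not pass the test (log2 difference -0.07, SE 0.064, adjusted p = 0.387), except under the stricter filter (adjusted p = 0.0482).
Nfkb1 encodes the usual partner of RelA. Nfkb1 had 98.0 and 98.1 CPM in CTO19 noEGF, against 107 and 103 CPM in CTO19 EM. In apsMC706, Nfkb1 had 44.8 and 45.1 CPM in noEGF, against 53.4 and 56.7 CPM in EM. The change did not pass in CTO19 (log2 change -0.10, SE 0.044, adjusted p = 0.0561; 0.0206 without CTO19 EM replicate 2, 0.0270 with no filter on low counts and 0.0476 in limma-voom), and Nfkb1 fell in apsMC706 (log2 change -0.29, SE 0.047, adjusted p = 6.22e-05). The difference of the responses passed (log2 difference 0.19, SE 0.064, adjusted p = 0.0201), but was lost without apsMC706 EM replicate 2, apsMC706 noEGF replicate 1 or either CTO19 noEGF library (adjusted p = 0.0589 to 0.210), and with DESeq2 or upper-quartile factors, other filters or the DESeq2 Wald test (adjusted p = 0.0814 to 0.263). Rel, which encodes c-Rel, had 27.0 to 30.2 CPM in CTO19 noEGF and 29.2 to 34.4 CPM in CTO19 EM, against 13.8 to 14.4 CPM in apsMC706 noEGF and 13.4 to 16.2 CPM in apsMC706 EM. Its media overlapped in both lines and no response passed, although the CTO19 response did without CTO19 EM replicate 2 (log2 fold change -0.26, adjusted p = 0.0302) and with no filter on low counts (adjusted p = 0.0206).

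In the IkB family, Nfkbia, the classic inhibitor whose gene NF-kB switches on to end its own activity, moved in opposite directions in the lines. Nfkbia had 98.7 and 93.2 CPM in CTO19 noEGF, against 108 and 112 CPM in CTO19 EM. In apsMC706, Nfkbia had 49.3 and 51.7 CPM in noEGF, against 19.2 and 18.7 CPM in EM. The 4 groups did not overlap, and the order ran from CTO19 EM at the top through CTO19 noEGF and apsMC706 noEGF to apsMC706 EM. Nfkbia fell 1.14-fold in CTO19 (log2 change -0.19, SE 0.046, adjusted p = 0.00162) and rose 2.67-fold in apsMC706 (log2 change 1.42, SE 0.054, adjusted p = 1.19e-11), with a log2 difference of -1.61 (SE 0.071, adjusted p = 2.44e-10).
Nfkbiz encodes a nuclear IkB protein that helps NF-kB to induce a secondary set of genes. Nfkbiz had 41.5 and 39.7 CPM in CTO19 noEGF, against 61.5 and 60.1 CPM in CTO19 EM. In apsMC706, Nfkbiz had 56.2 and 57.0 CPM in noEGF, against 41.1 and 36.7 CPM in EM. The groups crossed over: CTO19 was above apsMC706 in EM and below it in noEGF. Nfkbiz fell in CTO19 (log2 change -0.58, adjusted p = 2.46e-07) and rose in apsMC706 (log2 change 0.54, adjusted p = 4.85e-07), and the difference was -1.12 on the log2 scale (SE 0.077, adjusted p = 1.79e-08).

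The other IkB genes did not split the lines in this way. Nfkbib encodes a second cytoplasmic inhibitor. Nfkbib had 20.2 and 18.5 CPM in CTO19 noEGF, against 24.8 and 27.1 CPM in CTO19 EM. In apsMC706, Nfkbib had 11.2 and 12.0 CPM in noEGF, against 17.1 and 17.5 CPM in EM. It was the member that fell in both lines (log2 change -0.43, SE 0.070, adjusted p = 8.14e-05 in CTO19, and log2 change -0.58, adjusted p = 9.65e-06 in apsMC706). The gene overlaps Sirt2 on the other strand, which averaged 40.6 and 37.3 CPM in CTO19 noEGF and EM and 30.8 and 20.3 CPM in apsMC706 noEGF and EM; reads of such partners cannot be told apart without strand. In all, 10 members overlap a gene on the other strand: Nfkb2, Nfkbib, Bcl3, Tnfaip2, Il1a, Il1b, Csf2, Cxcl10, Cxcl16 and Icam1.
Nfkbie encodes a further inhibitor, one that is induced by the pathway. Nfkbie had 14.2 and 14.8 CPM in CTO19 noEGF, against 9.73 and 10.3 CPM in CTO19 EM. In apsMC706, Nfkbie had 1.45 and 1.80 CPM in noEGF, against 1.06 and 1.01 CPM in EM. It rose in both lines, by 1.45-fold in CTO19 (adjusted p = 1.04e-04) and 1.57-fold in apsMC706 (adjusted p = 0.00621), and no apsMC706 library came near the CTO19 level. The apsMC706 call was lost without apsMC706 noEGF replicate 2 (adjusted p = 0.108).
Bcl3, a nuclear IkB protein that works with the subunits lacking a transactivation domain, had 18.1 and 21.7 CPM in CTO19 noEGF and 20.03 and 20.7 CPM in CTO19 EM, which overlapped. In apsMC706, Bcl3 had 22.7 and 22.8 CPM in noEGF, against 15.7 and 14.3 CPM in EM. The change did not pass in CTO19 (log2 change -0.03, SE 0.082, adjusted p = 0.724), Bcl3 rose in apsMC706 (log2 change 0.60, SE 0.084, adjusted p = 1.43e-05), and the responses differed (log2 difference -0.64, SE 0.12, adjusted p = 3.03e-04).

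Of the induced regulators, Tnfaip2 and Tnfaip3 moved in opposite directions in the lines. Tnfaip3 encodes a ubiquitin-editing enzyme that shuts down signalling to IKK. Tnfaip3 had 52.1 and 49.4 CPM in CTO19 noEGF, against 61.2 and 57.8 CPM in CTO19 EM. In apsMC706, Tnfaip3 had 15.8 and 17.1 CPM in noEGF, against 4.15 and 4.14 CPM in EM. All 4 groups lay apart in the same order as for Nfkbia. Tnfaip3 fell 1.17-fold in CTO19 (log2 change -0.23, SE 0.053, adjusted p = 0.00140) and rose 3.97-fold in apsMC706 (log2 change 1.99, SE 0.084, adjusted p = 3.07e-11); the responses differed (log2 difference -2.22, SE 0.10, adjusted p = 2.85e-10).
Tnfaip2 encodes a protein that tumour necrosis factor induces in many cell types. Tnfaip2 had 106 and 108 CPM in CTO19 noEGF, against 214 and 220.1 CPM in CTO19 EM. In apsMC706, Tnfaip2 had 44 and 51 counts in noEGF, against 3 and 5 counts in EM, means of 1.27 and 0.108 CPM. Both CTO19 groups lay far above both apsMC706 groups, and the media lay apart in each line. Tnfaip2 fell 2.04-fold in CTO19 (log2 change -1.03, SE 0.042, adjusted p = 4.62e-11) and rose in apsMC706 (log2 change 3.53, SE 0.27, adjusted p = 2.49e-08), the largest difference of responses among members with more than 3 counts in each group (log2 difference -4.56, SE 0.26, adjusted p = 3.26e-09). With so few counts in apsMC706 EM, the SEs of the rise and of the difference understate the counting error.

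Birc3, which encodes a ubiquitin ligase of TNF receptor complexes, rose in both lines. Birc3 had 35.5 and 36.3 CPM in CTO19 noEGF, against 29.3 and 28.9 CPM in CTO19 EM. In apsMC706, Birc3 had 20.8 and 20.9 CPM in noEGF, against 9.10 and 8.85 CPM in EM. The noEGF libraries were higher in each line, by 1.23-fold in CTO19 (adjusted p = 1.39e-04) and 2.32-fold in apsMC706 (adjusted p = 3.61e-10), and the rise was smaller in CTO19 (log2 difference -0.91, SE 0.084, adjusted p = 3.49e-07). Traf1, an adaptor of TNF receptors, stayed at 0.521 CPM or less in every library: 19 and 15 counts in CTO19 noEGF and 18 and 9 counts in CTO19 EM, against 1 and 0 counts in apsMC706 noEGF and 2 and 3 counts in apsMC706 EM. No response of Traf1 to the medium passed.

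Among the cytokines, Il33 rose steeply in both lines. It encodes an alarmin that barrier epithelia keep in the nucleus and release on injury. Il33 had 153 and 197 CPM in CTO19 noEGF, against 32.9 and 30.0 CPM in CTO19 EM. In apsMC706, Il33 had 164 and 165 CPM in noEGF, against 36.7 and 38.0 CPM in EM. The noEGF libraries lay far above the EM libraries in both lines, and the lines overlapped in noEGF. Il33 rose 5.58-fold in CTO19 (log2 change 2.48, SE 0.13, adjusted p = 1.12e-05) and 4.40-fold in apsMC706 (log2 change 2.14, SE 0.13, adjusted p = 1.84e-05), and the difference of the responses did not pass (log2 difference 0.34, SE 0.18, adjusted p = 0.168), but passed without CTO19 noEGF replicate 1 (log2 difference 0.43, adjusted p = 3.75e-05). With 57.0 CPM per kilobase of exon it had the highest length-scaled level of all members in apsMC706 noEGF. The line difference in noEGF did not pass (log2 change 0.09, SE 0.12, adjusted p = 0.484); without CTO19 noEGF replicate 2 it reversed to -0.18 (adjusted p = 0.00414), and without replicate 1 it was 0.18 (adjusted p = 0.00426). In EM it did not pass either (log2 change -0.25, SE 0.14, adjusted p = 0.162), and did without either CTO19 noEGF library (log2 change -0.26 in both cases, adjusted p = 1.71e-04 and 1.94e-04), with the EM libraries alone (adjusted p = 0.00336) and in the DESeq2 Wald test (0.0133).
Il18, a cytokine of the IL-1 family stored as a precursor by epithelia, had one of the clearest rises in CTO19. Il18 had 48.7 and 53.4 CPM in CTO19 noEGF, against 5.88 and 5.84 CPM in CTO19 EM. The level was 8.70-fold higher there (log2 change 3.12, SE 0.088, adjusted p = 1.40e-12). In apsMC706, Il18 had 6 and 7 counts in noEGF, against 5 and 1 counts in EM, close to the floor of 3 counts. That change did not pass (adjusted p = 0.140), except without apsMC706 EM replicate 1 (adjusted p = 0.0366). The responses differed (log2 difference 2.04, SE 0.75, adjusted p = 0.0310), but not once apsMC706 EM replicate 1 or either apsMC706 noEGF library was left out (log2 difference 0.59 to 2.14, adjusted p = 0.0502 to 0.851).

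Il1a, the IL-1 cytokine that keratinocytes hold ready, and Tnf, the founding TNF family cytokine, both rose in apsMC706. Il1a had 64.7 and 59.2 CPM in CTO19 noEGF, against 126 and 119.7 CPM in CTO19 EM. In apsMC706, Il1a had 0.818 and 0.951 CPM in noEGF, against 0.185 and 0.272 CPM in EM. All 4 groups of Il1a lay apart, with CTO19 EM at the top. Il1a fell 1.98-fold in CTO19 (log2 change -0.99, SE 0.052, adjusted p = 6.18e-10) and rose in apsMC706 (log2 change 1.94, SE 0.31, adjusted p = 5.20e-05), and the responses differed (log2 difference -2.93, SE 0.31, adjusted p = 1.26e-06). A gene on the other strand of Il1a, Gm14023, averaged 1.07 CPM in apsMC706 noEGF and 0.589 CPM in apsMC706 EM, levels like those of Il1a itself there, so the apsMC706 values of Il1a are uncertain.
Tnf had 24.8 and 23.2 CPM in CTO19 noEGF, against 25.4 and 25.6 CPM in CTO19 EM. In apsMC706, Tnf had 10.6 and 11.6 CPM in noEGF, against 2.28 and 2.23 CPM in EM. In CTO19 the libraries of Tnf lay close together, and the change did not pass (log2 change -0.09, SE 0.066, adjusted p = 0.241). Tnf rose 4.93-fold in apsMC706 (log2 change 2.30, SE 0.10, adjusted p = 6.03e-11), and the responses differed (log2 difference -2.39, SE 0.12, adjusted p = 1.09e-09).

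Of the members called in CTO19, Il24 fell the most. Il24 encodes a cytokine of the IL-10 family that acts on epithelia. Il24 had 2.26 and 2.06 CPM in CTO19 noEGF, against 33.0 and 31.4 CPM in CTO19 EM. The level fell 14.9-fold (log2 change -3.90, SE 0.11, adjusted p = 1.18e-12). In apsMC706, Il24 had 2 and 4 counts in noEGF and 1 and 0 counts in EM (ratio of counts per library size 6.00, 95% counting interval 0.728 to 276), which did not pass (adjusted p = 0.0673). It did without apsMC706 EM replicate 1 (adjusted p = 0.0497), under the stricter filter (0.0484) and in limma-voom (0.0361).
Csf3, the granulocyte growth factor, followed the same course. Csf3 had 6.57 and 6.56 CPM in CTO19 noEGF, against 27.2 and 26.9 CPM in CTO19 EM. It fell 4.12-fold in CTO19 (log2 change -2.04, SE 0.090, adjusted p = 9.89e-11), while apsMC706 held 2 and 4 counts in noEGF and 0 and 1 counts in EM (ratio of counts per library size 6.00, 95% counting interval 0.728 to 276; adjusted p = 0.0673, and 0.0465 without apsMC706 EM replicate 2, 0.0484 under the stricter filter and 0.0307 in limma-voom). The tests of the difference of responses passed for both genes (adjusted p = 1.10e-04 for Il24 and 0.00144 for Csf3), and their sizes, -6.22 and -4.36 on the log2 scale, rest on 1 count in apsMC706 EM. Without either apsMC706 EM library in turn they moved to -8.52 and -5.38 for Il24 and to -6.68 and -3.48 for Csf3.
Csf2, the growth factor of granulocytes and macrophages, had 77 and 61 counts in CTO19 noEGF (2.07 and 1.52 CPM) and 80 and 85 counts in CTO19 EM (2.32 and 2.39 CPM). Its level in noEGF was the lower one in both libraries, but the change did not pass (log2 change -0.40, SE 0.22, adjusted p = 0.124; adjusted p = 0.0337 without CTO19 noEGF replicate 1), and no apsMC706 library held a count.

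Lif, a cytokine of the IL-6 family that sustains stem cells, moved in opposite directions in the lines. Lif had 17.7 and 16.3 CPM in CTO19 noEGF, against 33.0 and 32.6 CPM in CTO19 EM. In apsMC706, Lif had 15.3 and 15.8 CPM in noEGF, against 6.67 CPM in both libraries of EM. The noEGF libraries of the lines lay close to each other, while the EM libraries were far apart. Lif fell 1.94-fold in CTO19 (log2 change -0.95, SE 0.064, adjusted p = 6.73e-09) and rose 2.33-fold in apsMC706 (log2 change 1.22, SE 0.077, adjusted p = 2.51e-09), and the responses differed (log2 difference -2.17, SE 0.10, adjusted p = 3.53e-10).
Csf1, the macrophage growth factor, was higher in CTO19 in both media. Csf1 had 73.7 and 78.1 CPM in CTO19 noEGF, against 56.2 and 54.3 CPM in CTO19 EM. In apsMC706, Csf1 had 10.7 and 10.8 CPM in noEGF, against 9.07 and 9.48 CPM in EM. It rose in CTO19 (log2 change 0.46, SE 0.048, adjusted p = 7.87e-07) and, by less, in apsMC706 (log2 change 0.21, SE 0.072, adjusted p = 0.0157). The apsMC706 call was lost without apsMC706 EM replicate 1 or either apsMC706 noEGF library (adjusted p = 0.0549 to 0.126), and the difference of the responses (log2 difference 0.25, SE 0.086, adjusted p = 0.0253) without any of 5 libraries, both noEGF libraries of each line and apsMC706 EM replicate 2 (adjusted p = 0.0511 to 0.286), and with DESeq2 or upper-quartile factors, other filters or the DESeq2 Wald test (adjusted p = 0.0713 to 0.217).
Il1b and Il6, the best known inflammatory cytokines of macrophages, were close to absent: 2 to 8 counts of Il1b and 1 to 6 counts of Il6 in a library. Il1bos, on the strand opposite Il1b, averaged 3.42 CPM in apsMC706 noEGF and 0.389 CPM in apsMC706 EM.

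**Figure D3:**
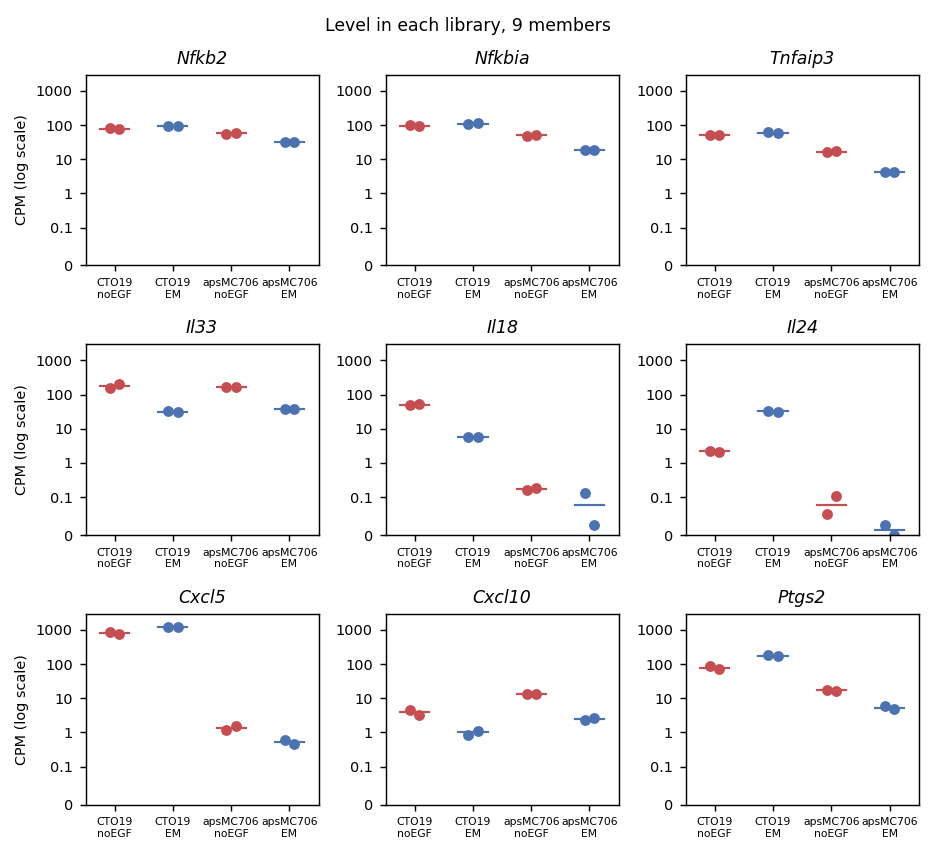
Level of 9 members in each library, as CPM on a log scale that turns linear below 0.1, with 1 panel per gene, points for libraries and a bar for the mean of the 2 libraries of each group. Nfkb2, Nfkbia, Tnfaip3, Cxcl5 and Ptgs2 step down in CTO19 noEGF and up in apsMC706 noEGF against EM, Il33 and Cxcl10 step up in both lines, and Il18 and Il24 are near the floor in apsMC706.

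All 8 chemokines were called in CTO19, with Cxcl1, Cxcl2, Cxcl5, Cxcl16 and Ccl2 lower in noEGF and Cxcl10, Ccl5 and Ccl20 higher. In apsMC706 all but Ccl2 rose. Over all genes, 68.0% were called in CTO19 (34.7% higher, 33.3% lower), and 34.1% rose in apsMC706. Cxcl1, Cxcl2 and Cxcl5 attract neutrophils and lie together on chromosome 5, with Cxcl5 131.9 kb from Cxcl1. Cxcl5 had 866 and 762 CPM in CTO19 noEGF, against 1199 and 1234 CPM in CTO19 EM. In apsMC706, Cxcl5 had 1.17 and 1.58 CPM in noEGF, against 0.609 and 0.463 CPM in EM. Cxcl5 was by far the most abundant member in CTO19, at 437 CPM per kilobase in noEGF and 653 CPM per kilobase in EM. It fell 1.49-fold in CTO19 (log2 change -0.58, SE 0.061, adjusted p = 8.70e-06) and rose 2.56-fold in apsMC706 (log2 change 1.36, SE 0.27, adjusted p = 8.92e-04), and the responses differed (log2 difference -1.94, SE 0.27, adjusted p = 1.06e-04).
Cxcl1 had 84.2 and 64.7 CPM in CTO19 noEGF, against 133 and 143 CPM in CTO19 EM. In apsMC706, Cxcl1 had 7.36 and 7.37 CPM in noEGF, against 1.90 and 1.74 CPM in EM. The spread between the CTO19 noEGF libraries was wide, yet both lay below the EM libraries. Cxcl1 fell 1.85-fold in CTO19 (adjusted p = 5.91e-04) and rose 4.03-fold in apsMC706 (adjusted p = 6.37e-04), with a log2 difference of -2.90 (SE 0.29, adjusted p = 2.05e-04).
Cxcl2 had 45 and 30 counts in CTO19 noEGF (1.21 and 0.745 CPM) and 80 and 93 counts in CTO19 EM (2.32 and 2.61 CPM), against 15 and 19 counts in apsMC706 noEGF (0.409 and 0.502 CPM) and 5 and 6 counts in apsMC706 EM (0.132 and 0.163 CPM). It moved in opposite directions at this low level too, with a log2 fold change of -1.34 in CTO19 (adjusted p = 1.55e-04) and 1.61 in apsMC706 (adjusted p = 0.00707). Its apsMC706 call was lost without apsMC706 EM replicate 1 or apsMC706 noEGF replicate 2 (adjusted p = 0.0502 to 0.0517).

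Cxcl16, a membrane-bound chemokine for T cells, repeated the pattern. Cxcl16 had 144 and 130.4 CPM in CTO19 noEGF, against 213 and 199 CPM in CTO19 EM. In apsMC706, Cxcl16 had 52.4 and 56.1 CPM in noEGF, against 20.3 and 16.8 CPM in EM. It fell 1.503-fold in CTO19 (log2 change -0.59, SE 0.075, adjusted p = 8.32e-05) and rose 2.93-fold in apsMC706 (log2 change 1.55, SE 0.091, adjusted p = 2.40e-07); the log2 difference was -2.14. Its neighbour on the other strand, Zmynd15, moved with it at a lower level, averaging 6.32 CPM in CTO19 noEGF and 8.64 CPM in CTO19 EM, against 2.38 CPM in apsMC706 noEGF and 0.698 CPM in apsMC706 EM.
Ccl2 attracts monocytes. Ccl2 had 89.6 and 67.8 CPM in CTO19 noEGF, against 117 and 125 CPM in CTO19 EM. It fell in CTO19 (log2 change -0.62, SE 0.14, adjusted p = 0.0119), a call lost without either CTO19 EM library (adjusted p = 0.0631 to 0.0916). In apsMC706, Ccl2 had 1 and 8 counts in noEGF and 2 and 1 counts in EM, which overlapped (ratio of counts per library size 3.00, 95% counting interval 0.749 to 17.2), and the change did not pass (adjusted p = 0.568). Nor did the difference of the responses (adjusted p = 0.445), which passed without CTO19 noEGF replicate 1 (adjusted p = 0.0284) and in the DESeq2 Wald test (0.0432).

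Cxcl10, Ccl5 and Ccl20 rose in both lines. Cxcl10 and Ccl5 attract activated T cells, and Cxcl10 is also a target of interferon. Cxcl10 had 4.49 and 3.30 CPM in CTO19 noEGF, against 0.868 and 1.12 CPM in CTO19 EM. In apsMC706, Cxcl10 had 13.7 and 13.6 CPM in noEGF, against 2.28 and 2.56 CPM in EM. Cxcl10 was the one member called lower in CTO19 than in apsMC706 in both media, and it rose 3.88-fold in CTO19 (log2 change 1.96, SE 0.20, adjusted p = 5.42e-07) and 5.63-fold in apsMC706 (log2 change 2.49, SE 0.14, adjusted p = 7.88e-10). The difference of the responses did not pass (log2 difference -0.54, SE 0.26, adjusted p = 0.0996), but did without CTO19 noEGF replicate 1 (log2 difference -0.85, adjusted p = 0.00718) and with no filter on low counts (adjusted p = 0.0335).
Ccl5 had 58 and 78 counts in CTO19 noEGF (1.56 and 1.94 CPM) and 17 and 16 counts in CTO19 EM (0.492 and 0.450 CPM). In apsMC706, Ccl5 had 60 and 71 counts in noEGF (1.64 and 1.88 CPM), against 9 and 3 counts in EM (0.238 and 0.0817 CPM). The lines overlapped in noEGF. Ccl5 rose 3.71-fold in CTO19 (adjusted p = 3.96e-05) and 10.7-fold in apsMC706 (adjusted p = 6.40e-07); the apsMC706 fold was larger without apsMC706 EM replicate 1, at a log2 fold change of 4.36. The difference of the responses (log2 difference -1.53, SE 0.52, adjusted p = 0.0211) was lost without apsMC706 EM replicate 2, apsMC706 noEGF replicate 2 or CTO19 EM replicate 1 (adjusted p = 0.0566 to 0.148) and in the DESeq2 Wald test (adjusted p = 0.0519), and was -2.47 without apsMC706 EM replicate 1.
Ccl20, which epithelia make to attract dendritic cells and T cells, was higher in CTO19 in both media. Ccl20 had 20.6 and 18.3 CPM in CTO19 noEGF, against 13.6 and 13.0 CPM in CTO19 EM. In apsMC706, Ccl20 had 18 and 32 counts in noEGF (0.491 and 0.845 CPM), against 4 and 3 counts in EM (0.106 and 0.0817 CPM). It rose in CTO19 (log2 change 0.54, SE 0.097, adjusted p = 1.57e-04) and more steeply in apsMC706 (log2 change 2.79, SE 0.45, adjusted p = 6.26e-05; difference -2.25, adjusted p = 9.73e-04).

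All 4 effectors rose in apsMC706, and of the 4 Ptgs2 alone was called in CTO19, as lower. Of all genes, 34.1% rose in apsMC706 and 33.3% fell in CTO19. Ptgs2 encodes the inducible cyclooxygenase that feeds prostaglandin synthesis. Ptgs2 had 85.5 and 69.7 CPM in CTO19 noEGF, against 184 and 167 CPM in CTO19 EM. In apsMC706, Ptgs2 had 17.7 and 16.6 CPM in noEGF, against 5.98 and 4.68 CPM in EM. The media lay apart in both lines in opposite directions. Ptgs2 fell 2.26-fold in CTO19 (log2 change -1.18, SE 0.11, adjusted p = 8.32e-05) and rose 3.21-fold in apsMC706 (log2 change 1.68, SE 0.18, adjusted p = 1.42e-04), and the responses differed (log2 difference -2.86, SE 0.21, adjusted p = 2.97e-05).
Lcn2 encodes lipocalin, an iron-withholding protein of inflamed gut epithelium. Lcn2 had 15.1 and 18.2 CPM in CTO19 noEGF, against 16.3 and 18.9 CPM in CTO19 EM. In apsMC706, Lcn2 had 6.65 and 4.97 CPM in noEGF, against 0.688 and 0.763 CPM in EM. In CTO19 the media overlapped and the change did not pass (adjusted p = 0.585), while in apsMC706 Lcn2 rose 7.97-fold (log2 change 3.00, SE 0.24, adjusted p = 4.14e-07). The responses differed (log2 difference -3.07, SE 0.27, adjusted p = 2.06e-06).
Saa3, an acute-phase protein made outside the liver, had 226 and 262 counts in CTO19 noEGF (6.08 and 6.51 CPM) and 144 and 207 counts in CTO19 EM (4.17 and 5.82 CPM), a change that did not pass (adjusted p = 0.0746) but did without CTO19 EM replicate 2 or CTO19 noEGF replicate 1 (adjusted p = 0.0107 and 0.0493) and with the replicate block or limma-voom (adjusted p = 0.0370 and 0.0446). In apsMC706, Saa3 had 8 and 10 counts in noEGF, against 1 and 0 counts in EM (ratio of counts per library size 18.0, 95% counting interval 2.84 to 749.9), and passed (adjusted p = 0.00190). The test of the difference of responses passed (adjusted p = 0.00612) but missed the threshold without apsMC706 EM replicate 2 (adjusted p = 0.0517), and its size, -3.53 on the log2 scale, moved between -2.70 and -5.84 without either apsMC706 EM library.
Icam1, the adhesion molecule for leukocytes, moved little. Icam1 had 53.4 and 50.1 CPM in CTO19 noEGF, against 52.4 and 54.9 CPM in CTO19 EM. In apsMC706, Icam1 had 29.7 and 30.7 CPM in noEGF, against 25.3 and 27.3 CPM in EM. Its rise in apsMC706 was 1.15-fold (log2 change 0.20, SE 0.059, adjusted p = 0.00794), and this call and that of the difference (log2 difference -0.25, SE 0.080, adjusted p = 0.0148) were lost without apsMC706 EM replicate 1 or apsMC706 noEGF replicate 2 (adjusted p = 0.0869 to 0.147 and 0.0830 to 0.119).

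Set against each other in the same medium, CTO19 had more RNA of most members. In noEGF 28 of the 35 tested members were higher in CTO19 and 4 lower (91.4% called, against 80.0% of all genes, of which 45.7% higher), and in EM 32 were higher and 1 lower (94.3%, against 71.3% of all genes, of which 37.5% higher). The 4 lower in noEGF were Rela, Nfkbiz, Bcl3 and Cxcl10, and the 1 in EM was Cxcl10. Traf1, Il18, Il24, Csf2, Csf3, Ccl2 and Saa3 passed the filter on low counts through CTO19 libraries alone, so these 7 had to be higher there and the counts are given as a description. The median log2 fold change of the tested members was 1.34 in noEGF and 3.27 in EM, unaltered with Csf2 at its bound and 1.05 and 2.42 over the 28 tested members without those 7, against 0.13 in noEGF and 0.02 in EM over all genes.

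Several cytokines and chemokines abundant in CTO19 were close to absent from apsMC706. In EM, Cxcl5 was 2252-fold higher in CTO19 (log2 change 11.14, SE 0.12, adjusted p = 1.79e-14) and Tnfaip2 1962-fold (log2 change 10.94, SE 0.10, adjusted p = 2.11e-18). These folds rest on 40 counts of Cxcl5 and 8 of Tnfaip2 over the apsMC706 EM libraries, and their SEs understate the counting error. The apsMC706 EM libraries together held 3 counts of Ccl2, 1 of Il24, 1 of Csf3 and 1 of Saa3, against 8503, 2255, 1895 and 351 counts in CTO19 EM. For Ccl2 this gave a ratio of counts per library size of 3011 (95% counting interval 1030.0 to 14604), and for Il24 one of 2396 (429.5 to 94664). Csf2, with no count in apsMC706, was at least 44.3-fold higher in CTO19 noEGF and at least 58.4-fold higher in CTO19 EM. The floor here was 3 counts over both apsMC706 libraries of a medium together.
At the other end, Rela and Il33 were nearly level. Rela differed by a log2 fold change of -0.13 in noEGF (adjusted p = 0.0189; 0.211 without apsMC706 noEGF replicate 2) and -0.06 in EM, which did not pass (adjusted p = 0.287). Cxcl10 was 3.504-fold lower in CTO19 noEGF (log2 change -1.81, SE 0.13, adjusted p = 6.29e-09) and 2.42-fold lower in CTO19 EM (log2 change -1.27, SE 0.21, adjusted p = 8.41e-05). In noEGF, Lif and Ccl5 did not pass either (adjusted p = 0.104 and 0.992), and the calls of Bcl3 (without any of 4 libraries, adjusted p = 0.0522 to 0.137), Cxcl2 and Relb (without CTO19 noEGF replicate 1, adjusted p = 0.134 and 0.524) were lost when 1 library was left out, that of Relb also with upper-quartile factors, no filter, the noEGF libraries alone or the DESeq2 Wald test (adjusted p = 0.0514 to 0.112). The 4 libraries for Bcl3 were apsMC706 EM replicate 1, both apsMC706 noEGF libraries and CTO19 noEGF replicate 1. The level of Ccl2 in CTO19 noEGF was above that in apsMC706 noEGF by 9.31 on the log2 scale, and by 8.52 or 11.33 without either apsMC706 noEGF library. In EM the call of Ccl5 was lost without apsMC706 EM replicate 2 (log2 change 0.97). That of Traf1 was lost without CTO19 EM replicate 1 (log2 change 1.86).

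**Figure D4:**
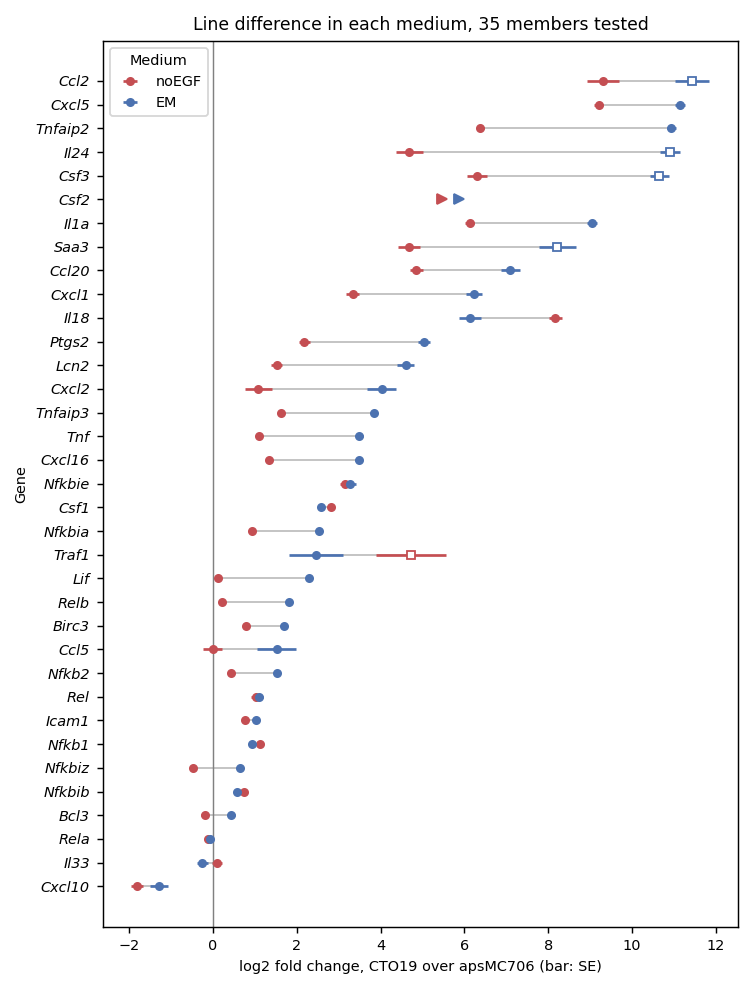
Line difference of the 35 tested members in each medium, as the log2 fold change of CTO19 over apsMC706 with its SE, in noEGF (red) and EM (blue), with genes ordered by the EM value. The bars understate the error of large folds that rest on few counts. Open squares had at most 3 counts in an apsMC706 group and triangles are the lower bounds of Csf2. In most rows the noEGF point lies nearer to 0 than the EM point, Il18, Csf1 and Traf1 being among those where it does not.

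The lines were closer to each other in noEGF than in EM for most members: the log2 line difference was smaller in size in noEGF in 27 of 34 tested members without Csf2 (79.4%), against 41.5% of all genes tested. This restates the difference of the responses and is not a further test. Among the 27 were Il24, Csf3, Ccl2 and Saa3, with 1, 1, 3 and 1 counts over the apsMC706 EM libraries. The size of their line difference in EM is therefore uncertain. Under 1 CPM on average were 4 members in CTO19 noEGF, 5 in CTO19 EM, 12 in apsMC706 noEGF and 16 in apsMC706 EM. At 100 CPM or more were 4, 9, 2 and 0 members in the same order of groups. The 37 members took 0.242% to 0.255% of all counts in CTO19 noEGF and 0.305% to 0.307% in CTO19 EM, against 0.0760% to 0.0789% in apsMC706 noEGF and 0.0404% to 0.0410% in apsMC706 EM.
Scaled by length, the leading members were Cxcl5, Ccl2 and Il33 in CTO19 noEGF (437, 69.2 and 60.8 CPM per kilobase), Cxcl5, Ccl2 and Cxcl1 in CTO19 EM (653, 106 and 73.5), Il33, Rela and Nfkbia in apsMC706 noEGF (57.0, 35.1 and 31.3) and Rela, Il33 and Nfkbia in apsMC706 EM (26.6, 13.0 and 11.8).

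Other genes of the pathway were counted by list, beside which stand the shares over all genes: 34.7% rose and 33.3% fell in CTO19, and 34.1% rose and 33.1% fell in apsMC706. Of 16 tested receptors that feed the pathway, 9 rose and 5 fell in CTO19 and 8 rose and 5 fell in apsMC706 (56.2% and 31.2% in CTO19, 50% and 31.2% in apsMC706). The difference of smallest p was that of Tnfrsf12a, the receptor of the cytokine TWEAK, with 80.0 ± 5.90 CPM in CTO19 noEGF and 126 ± 7.89 CPM in CTO19 EM, against 100.2 ± 2.80 CPM in apsMC706 noEGF and 45.2 ± 0.553 CPM in apsMC706 EM (SD, n = 2 each). It fell in CTO19 and rose in apsMC706; CTO19 was the higher line in EM and the lower in noEGF (log2 difference -1.80, SE 0.080, adjusted p = 3.76e-10). Tlr2, a receptor for bacterial lipoproteins, went the opposite way, up in CTO19 (log2 fold change 0.79, adjusted p = 1.05e-05) and down in apsMC706 (-0.89, adjusted p = 5.18e-04). Il1r1, the signalling receptor of IL-1, rose in both lines (0.81 in CTO19 and 1.11 in apsMC706 on the log2 scale).
Of 22 adaptors, 9 rose and 7 fell in CTO19 and 8 rose and 6 fell in apsMC706 (40.9% and 31.8% in CTO19, 36.4% and 27.3% in apsMC706). Myd88, the adaptor shared by Toll-like and IL-1 receptors, did not pass in CTO19 (adjusted p = 0.0656) and fell to 14.7 CPM in apsMC706 noEGF, against 29.2 CPM in apsMC706 EM (log2 change -0.99, SE 0.062, adjusted p = 2.14e-09). Irak2, a kinase downstream of it, rose in both lines, more in apsMC706 (log2 difference -1.09, SE 0.10, adjusted p = 3.80e-07).

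Of 11 genes of the IKK complex and its kinases, 3 rose and 3 fell in CTO19 and 6 rose and 3 fell in apsMC706 (27.3% and 27.3% in CTO19, 54.5% and 27.3% in apsMC706); over all genes 34.7% rose and 33.3% fell in CTO19, and 34.1% rose and 33.1% fell in apsMC706. Ikbkg, the regulatory subunit of IKK, rose in both (log2 fold change 0.33 in CTO19 and 0.47 in apsMC706, adjusted p = 7.37e-06 and 1.34e-07). Ikbke, an inducible IKK-related kinase, had 38.2 ± 1.497 CPM in CTO19 noEGF and 65.8 ± 4.55 CPM in CTO19 EM, against 2.12 ± 0.104 CPM in apsMC706 noEGF and 0.469 ± 0.0853 CPM in apsMC706 EM (SD, n = 2 each), and its responses differed in the direction of most members (log2 difference -2.95, SE 0.22, adjusted p = 3.86e-08).
Of 15 ubiquitin editors, 9 rose and 3 fell in CTO19 and 10 rose and 3 fell in apsMC706 (60% and 20% in CTO19, 66.7% and 20% in apsMC706). Tnip3, a partner of the Tnfaip3 protein, rose in both, 2.08-fold in CTO19 and 9.02-fold in apsMC706 (log2 difference -2.11, SE 0.11, adjusted p = 1.33e-09). Rnf31 and Birc2, ubiquitin ligases of TNF receptor signalling, rose in both lines by log2 fold changes of 0.49 and 0.43 in CTO19 and 0.55 and 0.60 in apsMC706.

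Cytokines and chemokines outside the 37 were also looked up by name: 30 of 47 were tested, of which 14 rose and 6 fell in CTO19 and 13 rose and 2 fell in apsMC706 (46.7% and 20% in CTO19, 43.3% and 6.67% in apsMC706). Over all genes, 68.0% were called in CTO19 and 67.2% in apsMC706, with 34.7% and 34.1% higher. Cxcl3, of the same neutrophil-attracting group as Cxcl1, also fell in CTO19 and rose in apsMC706, with 2.97 ± 0.0153 CPM in CTO19 noEGF and 7.02 ± 1.12 CPM in CTO19 EM, against 1.10 ± 0.0131 CPM in apsMC706 noEGF and 0.0942 ± 0.0209 CPM in apsMC706 EM (SD, n = 2 each; log2 difference -4.74, SE 0.40, adjusted p = 1.38e-07). Mif, the macrophage migration inhibitory factor, did so as well (log2 difference -1.83, SE 0.053, adjusted p = 4.43e-12). Cx3cl1, a membrane-bound chemokine, rose in both lines (0.76 in CTO19 and 1.70 in apsMC706 on the log2 scale). Il1f5 and Il1f8, of the IL-36 branch of the IL-1 family, rose in CTO19, to 41.9 and 21.3 CPM in noEGF, against 2.41 and 1.51 CPM in EM; apsMC706 held no count of Il1f5 and 1 of Il1f8.
Of 21 tested cytokine receptors and antagonists, 12 rose and 4 fell in CTO19 and 8 rose and 2 fell in apsMC706 (57.1% and 19.0% in CTO19, 38.1% and 9.52% in apsMC706). Il1rn, the natural antagonist of the IL-1 receptor, rose in both: it averaged 66.5 CPM in CTO19 noEGF and 25.4 CPM in CTO19 EM, against 6.74 CPM in apsMC706 noEGF and 1.21 CPM in apsMC706 EM. Il1a and Il1rn thus moved in opposite directions in CTO19. Osmr, the oncostatin M receptor, fell in CTO19 (log2 change -0.34, SE 0.11, adjusted p = 0.0118) and rose in apsMC706 (log2 change 2.21, SE 0.12, adjusted p = 6.35e-10).

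Among 18 further tested NF-kB targets, 12 rose and 4 fell in CTO19 and 11 rose and none fell in apsMC706; over all genes 34.7% rose and 33.3% fell in CTO19, and 34.1% rose and 33.1% fell in apsMC706. Ptges, which works downstream of cyclooxygenase to make prostaglandin E, followed Ptgs2, with 21.0 ± 1.53 CPM in CTO19 noEGF and 47.6 ± 0.178 CPM in CTO19 EM, against 4.04 ± 0.224 CPM in apsMC706 noEGF and 0.444 ± 0.104 CPM in apsMC706 EM (SD, n = 2 each; log2 difference -4.36, SE 0.19, adjusted p = 2.34e-10). Ier3, an early response gene, did not pass in CTO19 (adjusted p = 0.679) and rose 2.45-fold in apsMC706 (adjusted p = 7.00e-12). Gadd45b, a stress-induced regulator, rose in both lines (1.84-fold in CTO19 and 2.29-fold in apsMC706). Nos2, the inducible nitric oxide synthase, rose in CTO19, to 24.7 CPM in noEGF, against 3.84 CPM in EM (log2 change 2.68, SE 0.35, adjusted p = 0.00327), and apsMC706 held 4 counts in noEGF and none in EM.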

How the data were processed

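Poly(A)-selected RNA was sequenced in 8 libraries with the NEBNext Ultra II RNA kit and 8 cycles of amplification, per the labels' protocols; that kit does not mark strand. STAR 2.7.0a and the mm10 build were used, per the submitters' processing notes. How reads were counted, with which strand setting and annotation, is not given in the sources used here. Raw read counts, whole numbers for each Ensembl identifier, were what the authors deposited. Names and positions came from GENCODE M21, which held 32680 of the 32728 identifiers (48 not found, 7747 with no count). The 37 members and 7 further lists (167 genes, 162 found by symbol) were chosen with earlier results of these data known. Values in every library are given for members called over both lines, called for the difference of the responses with a log2 difference of at least 1, or among the most abundant, and in part for the rest; of each other list, up to 3 genes of smallest p for the difference of the responses or over both lines could be named.

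Tests on the counts used edgeR 4.0.16 (R 4.3.3). filterByExpr by the 4 groups kept 16719 genes (99.971% of counts), and TMM factors scaled the libraries to CPM. Quasi-likelihood F-tests with robust moderation, two-sided, gave p-values adjusted by Benjamini-Hochberg over all genes tested, with a threshold of 0.05. The comparison over both lines adjusted for line and left 5 residual degrees of freedom, with a biological coefficient of variation of 16.9%. The others used the 4 group means, with 4 residual degrees of freedom and a coefficient of 4.27%. Log2 fold changes (log2 change) are noEGF minus EM or CTO19 minus apsMC706, with their SE. The SE is the size of the log2 fold change divided by the root of F. For large folds that rest on few counts it understates the counting error. Floors (3 counts) and exact 95% intervals for ratios of counts cover counting error only, since amplified reads without molecular identifiers are not independent molecules. Replicates of a group differed beyond sampling noise. The fits were run on simulated data with no difference between the lines and less spread than the pooled fit had. That run checks the code and not the pooled or line results. Alternatives were DESeq2 1.42.0 size factors and its Wald test, upper-quartile factors, other filters, limma 3.58.1 (voom), a replicate block, a test against a fold of 1.5, omission of the line term, replicates summed per group, fits to only the 4 libraries compared, and omission of each library in turn. The count of members that fell in CTO19 and rose in apsMC706 was added after the data were seen.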

Additional observations from a re-analysis of the deposited data

Results flagged for a closer look

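The response to noEGF differed between the lines, by the edgeR test of the difference itself, for 26 of the 35 tested members (74.3%), against 56.0% of all genes. Among these called members, the log2 difference (CTO19 minus apsMC706) was above 0 for Il18 (2.04), Csf1 (0.25) and Nfkb1 (0.19). Among the regulators it was -4.56 for Tnfaip2, -2.22 for Tnfaip3, -1.61 for Nfkbia, -1.59 for Relb, -1.12 for Nfkbiz, -1.08 for Nfkb2, -0.91 for Birc3 and -0.64 for Bcl3. Among the cytokines it was -6.22 for Il24, -4.36 for Csf3, -2.93 for Il1a, -2.39 for Tnf and -2.17 for Lif. The chemokines gave -2.95 for Cxcl2, -2.90 for Cxcl1, -2.25 for Ccl20, -2.14 for Cxcl16, -1.94 for Cxcl5 and -1.53 for Ccl5, and the effectors -3.53 for Saa3, -3.07 for Lcn2, -2.86 for Ptgs2 and -0.25 for Icam1. The squamous markers summed high in CTO19 and low in apsMC706, although Krt13 was low in both lines, and their part in these differences was not tested. The calls of Il18, Csf1, Nfkb1, Ccl5, Icam1 and Saa3 were each lost when certain single libraries were left out. The sizes given for Il24, Csf3 and Saa3 rest on 1 count in apsMC706 EM. With 2 libraries per group, single libraries that stand apart were not looked for by a test.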

How the results depend on the processing

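Counts of called members were 13 over both lines, 26 in CTO19, 28 in apsMC706, 26 for the difference of the responses, 32 between lines in noEGF and 33 in EM. Of all genes, 48.8%, 68.0%, 67.2%, 56.0%, 80.0% and 71.3% were called, in the same order. The counts of members stayed within 1.5 times those given under the other scalings, filters, limma-voom, the DESeq2 Wald test and the 4 libraries of a comparison alone. Over both lines, the count was 5 in a test against a fold of 1.5, 3 without the line term and 0 with summed libraries. Of all genes, 13.3%, 10.8% and 0% passed in these settings. In CTO19 the count was 12 against a fold of 1.5, where 21.8% of all genes passed. The count of 12 members that fell in CTO19 and rose in apsMC706 became 6 against that fold. Those settings ask for a larger change or leave more spread or fewer samples in the fit. Leaving out each library gave 11 to 12 over both lines, 25 to 27 in CTO19, 24 to 29 in apsMC706, 22 to 27 for the difference, 30 to 33 in noEGF, 32 to 34 in EM and 11 to 13 for the pattern. 1 value reversed and passed the test: Il33, CTO19 against apsMC706 in noEGF, at -0.18 without CTO19 noEGF replicate 2 and 0.18 without replicate 1. Replicate numbers did not pair the libraries (correlations of replicate differences -0.00825 to 0.0485); with the replicate block 11 members were called over both lines, with Nfkb1 and Relb lost, 27 in CTO19 (Saa3 gained), 28 in apsMC706, 26 for the difference, 32 in noEGF and 33 in EM. The low members (Traf1, Il18, Il24, Csf2, Csf3, Ccl2, Saa3) are limited by depth in apsMC706.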
